A study of Mus musculus with 18 samples.

Results

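Cdc40 and 9 other genes that encode proteins of the catalytic spliceosome are described here in mouse splenic B cells with and without Zbtb24. They are 10 of the 16545 genes in the expression table, and all 10 were found in it by NCBI gene ID. The list holds 4 second-step factors (Cdc40, Slu7, Prpf18 and Dhx38), 4 core subunits of the Prp19 complex (Prpf19, Cdc5l, Plrg1 and Bcas2) and a pair of proteins that join the spliceosome with it (Crnkl1 and Xab2). Cdc40 was picked from these same libraries for its lower values in the knockout, so its genotype values below are a description and carry no test. The other 9 genes, whose proteins work in the same steps of splicing, were tested.

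RNA was sequenced from B cells purified from the spleens of C57BL/6 mice, with 3 libraries in each of 6 groups. Control mice were littermates carrying 1 copy of a Cre allele that is active in B cells, and wild type Zbtb24. Zbtb24 B-CKO mice (B-CKO) carried the same Cre allele and Zbtb24 loxp/loxp, and in them exon 2 of Zbtb24 is removed in cells that express Cre. Both genotypes therefore share the Cre allele. Cells of both genotypes were taken at day 0, day 1 and day 2 of stimulation with LPS, a bacterial product that activates B cells through TLR4, and each replicate came from 1 mouse. The dose of LPS used for these libraries and the age of the mice are not given in the sources used here. Values are FPKM, that is, fragments scaled to the length of the transcript and to the mapped fragments of the library, so that levels of different genes can be set side by side. The number of fragments behind a value is unknown.

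Pre-mRNA splicing removes an intron by a pair of reactions. In the first step the intron is cut at its 5′ end and closed into a lariat, and in the second step the exons are joined and the lariat is let go. The Prp19 complex enters when the spliceosome is activated and holds its RNA core in place. The second-step factors then remodel the core and bring the 3′ splice site to it. These genes are active in nearly all cells, and resting B cells enlarge and raise RNA production when they are activated.

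Libraries of day 0 varied more than those of the later days. The median SD between replicates over genes averaging 1 FPKM or more was 0.169 on the log2(FPKM + 1) scale in control and 0.158 in B-CKO at day 0, against 0.0545 to 0.0852 in the other 4 groups. All 8 B cell markers exceeded 1 FPKM on average in every group, with summed levels of 4228 to 5546 FPKM at day 0 and of 2120.5 to 2744 FPKM afterwards. At day 1 these sums were lower in B-CKO (2120.5 to 2198 FPKM) than in control (2429.5 to 2615 FPKM), and at day 0 and day 2 the genotypes overlapped. Summed T cell markers (9 genes) lay between 9.17 and 17.8 FPKM at day 0 and between 1.71 and 3.47 FPKM afterwards. At day 2 the T cell sums were lower in B-CKO (1.71 to 2.31 FPKM) than in control (2.56 to 3.47 FPKM). Summed erythroid markers (7 genes) lay between 7.08 and 46.9 FPKM at day 0 and between 0.130 and 4.09 FPKM afterwards. Summed myeloid markers (8 genes) stayed between 3.33 and 10.7 FPKM, and at day 2 were lower in B-CKO (3.72 to 5.16 FPKM) than in control (5.41 to 7.06 FPKM). In such bulk samples, fewer cells of a type and less RNA per cell cannot be told apart.

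Zbtb24, the targeted gene, was lower in each B-CKO library than in each control library of the same day. At day 0 it was at 49.56, 49.62 and 37.05 FPKM in control and at 14.33, 10.53 and 12.57 FPKM in B-CKO. The mean in B-CKO was 0.275 times that of control at day 0, 0.620 times at day 1 and 0.686 times at day 2. None of these differences passed the limma test described below (log2 fold changes -1.78, -0.64 and -0.50, adjusted p = 0.120, 0.0586 and 0.267), so even the largest of them, at day 0, was not called. Fragments from the exons that remain still count towards these values.

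Cdc40 (gene ID 71713), the mouse counterpart of yeast Prp17, helps the spliceosome move from the first step to the second. RefSeq places it on chromosome 10 of GRCm38 (mm10) from 40831621 to 40883143 on the minus strand, and its principal GENCODE transcript, on the same build, has 15 exons.

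The start of Cdc40 was searched for CAGGACCT, an 8-base sequence described for ZBTB24 binding, on both strands. RefSeq windows on GRCm38.p6, from 250 bases before an annotated start to 50 after it, were found for 7 of the 10 genes. For Cdc40 this was the start of the gene. The second Prpf19 window, chr19:10898395-10898694, lay inside the gene, and the Xab2 window was placed from a start inside the gene. The Cdc40 window, chr10:40883094-40883393 on the minus strand, held 2 matches. The 7 windows of the other 6 genes (Prpf19, Cdc5l, Plrg1, Bcas2, Crnkl1 and Xab2) held 0. Slu7, Prpf18 and Dhx38 had no entry. Of all 32851 windows, 653 (1.99%) held at least 1 match and 13 (0.0396%) held 2 or more. A window without a match was thus the usual case, as in the other 6 genes. Both matches in Cdc40 are shown with 30 bases on the strand of the gene and the matching 8 bases in capitals. AGGTCCTG is the same sequence read on the opposite strand.
Cdc40, 161 bases before the start, chr10:40883286-40883315: tttaatcaacgAGGTCCTGaaagttacaaa
Cdc40, from base 3 after the start, chr10:40883123-40883152: tgacaatctgaCAGGACCTgggagacgctg

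In the principal GENCODE transcript of Cdc40, which begins at position 40883311 and so upstream of the RefSeq start, both matches fall in non-coding exon sequence. Such a match is a description of letters and not a measured binding site.

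Cdc40 was lower in B-CKO than in control at all 3 days. At day 0 the control libraries were at 21.67, 16.47 and 19.24 FPKM and the B-CKO libraries at 10.99, 12.09 and 10.88 FPKM. At day 1 they were at 22.30, 21.64 and 19.72 FPKM in control and at 13.35, 12.87 and 12.70 FPKM in B-CKO. At day 2 they were at 20.44, 20.14 and 19.06 FPKM in control and at 11.86, 12.87 and 12.80 FPKM in B-CKO. The highest of all 9 B-CKO libraries, at 13.35 FPKM, was below the lowest of all 9 control libraries, at 16.47 FPKM, so the genotypes did not overlap even across days. The B-CKO mean was 0.592 times the control mean at day 0 (11.3 ± 0.669 against 19.1 ± 2.60 FPKM, SD, n = 3), 0.611 times at day 1 (13.0 ± 0.337 against 21.2 ± 1.34) and 0.629 times at day 2 (12.5 ± 0.564 against 19.9 ± 0.726). On the log2(FPKM + 1) scale the differences were -0.70 (standard error 0.12), -0.67 (0.050) and -0.63 (0.053), and over all alternative settings and left-out libraries they stayed between -0.80 and -0.59. These are the values on which Cdc40 was chosen.

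**Figure D1:**
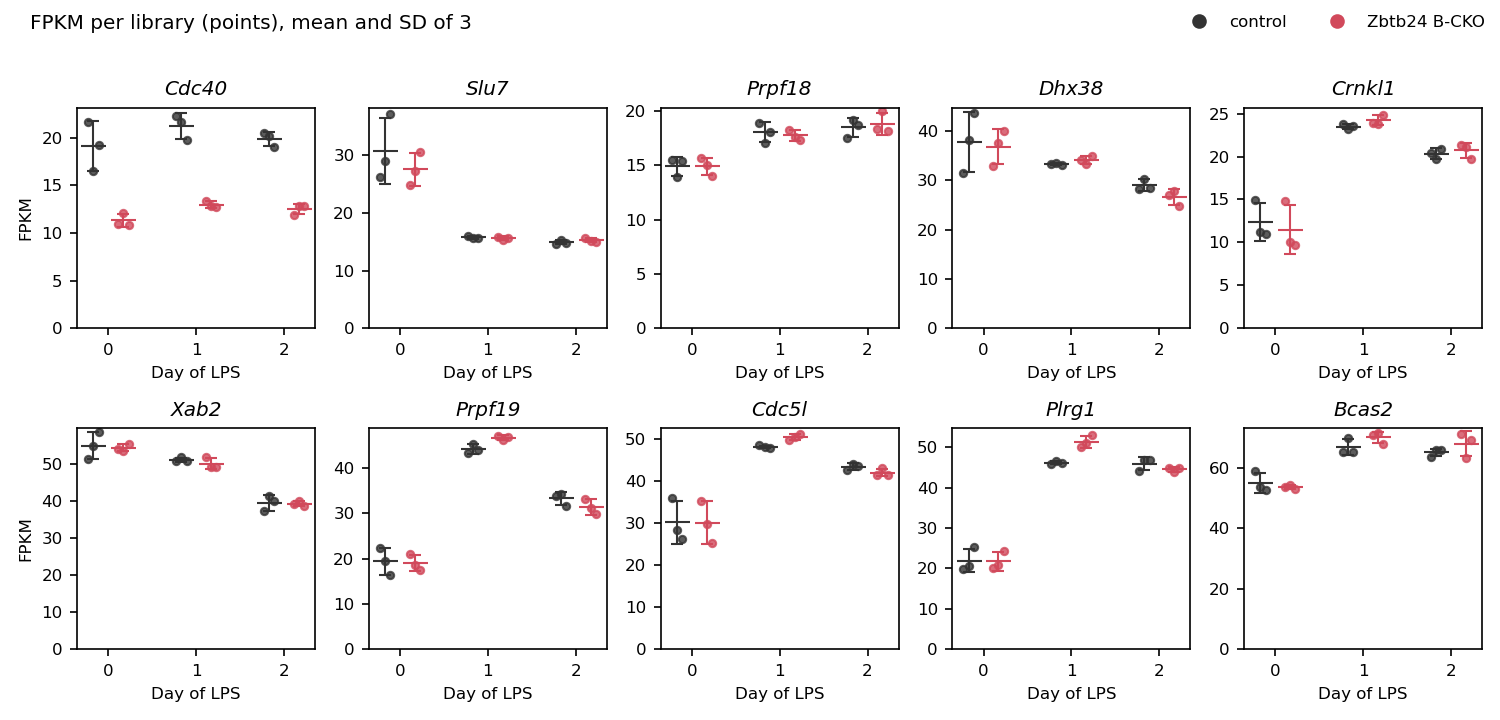
FPKM (y axis, starting at 0) of the 10 genes at day 0, 1 and 2 of LPS (x axis) in control (black) and B-CKO (red) cells, with 1 point per library and the mean with its SD (n = 3). Cdc40 is the only panel in which the genotypes are apart at all 3 days, whereas Prpf19, Plrg1, Cdc5l, Crnkl1 and Slu7 change most from day 0 to day 1.

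None of the other 3 second-step factors passed the test between genotypes at any day. Slu7, which places the 3′ splice site for exon ligation, was at 26.18, 28.90 and 37.06 FPKM in control and at 24.82, 27.19 and 30.44 FPKM in B-CKO at day 0, and the groups overlapped. Libraries of day 0 with the same replicate number deviated together, and within these 3 pairs Slu7 was lower in B-CKO each time, with a log2 fold change of -0.14 that had a standard error of 0.060 with the replicate block (limma adjusted p = 0.867) and of 0.15 without it. In the fit without the block, that value was -0.25 without control replicate 1, -0.22 without B-CKO replicate 3, -0.076 without B-CKO replicate 1 and -0.0059 without control replicate 3 of day 0. Crnkl1 was also lower in B-CKO in 3 of 3 pairs of day 0. Its log2 fold change of -0.11 had a standard error of 0.064 with the block (limma adjusted p = 0.904) and of 0.20 without it. Prpf19, Cdc5l, Xab2 and Dhx38 were lower in 2 of 3 pairs, and Plrg1, Bcas2 and Prpf18 in 1 of 3. The share of all genes lower in 3 of 3 pairs was not counted. At day 1 Slu7 was at 15.7 ± 0.281 and 15.6 ± 0.284 FPKM (SD, n = 3), and at day 2 at 14.9 ± 0.369 and 15.3 ± 0.336 FPKM. Prpf18, which works together with Slu7, was at 14.9 FPKM on average in both genotypes at day 0, at 18.91, 17.09 and 18.08 FPKM in control and 18.26, 17.62 and 17.35 FPKM in B-CKO at day 1 and at 18.5 and 18.8 FPKM at day 2. Dhx38, the mouse counterpart of the Prp16 helicase that remodels the spliceosome after the first step, overlapped between genotypes at day 0 and day 1. At day 2 it was at 28.27, 30.39 and 28.43 FPKM in control and at 27.15, 27.82 and 24.74 FPKM in B-CKO. Each B-CKO library was then below each control library, but the log2 fold change of -0.12 (standard error 0.057) did not pass the limma test (adjusted p = 0.668), and without B-CKO replicate 3, the lowest library, it was -0.076.

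None of the 4 core genes of the Prp19 complex passed the test between genotypes at day 1. Plrg1, a WD-repeat subunit, was at 45.91, 46.71 and 46.04 FPKM in control and at 50.08, 50.99 and 53.02 FPKM in B-CKO at day 1. Its groups did not overlap, and its log2 fold change was 0.15 (standard error 0.028, unadjusted p = 0.00120, limma adjusted p = 0.0940 over all genes). When the fit was limited to genes averaging 1 FPKM or more, the adjusted p of Plrg1 was 0.0458, and over all alternatives it ranged from 0.0413 to 1.00. Prpf19, the ubiquitin ligase that gives the complex its name, was at 43.47, 45.43 and 43.94 FPKM in control and at 47.17, 46.23 and 47.00 FPKM in B-CKO, a log2 fold change of 0.078 (limma adjusted p = 0.206). Cdc5l, a scaffold protein with Myb-like DNA-binding repeats, was at 48.2 ± 0.282 and 50.5 ± 0.745 FPKM (log2 fold change 0.067, limma adjusted p = 0.210). Bcas2, the fourth core subunit, was at 66.8 ± 2.75 and 70.1 ± 1.89 FPKM, and its groups overlapped. Of the pair of associated proteins, Crnkl1 was at 23.77, 23.16 and 23.50 FPKM in control and at 23.91, 23.84 and 24.88 FPKM in B-CKO, just above the control libraries, and Xab2, which also acts in transcription-coupled DNA repair, was at 51.2 ± 0.511 and 50.1 ± 1.51 FPKM. At day 2 the differences of Plrg1, Prpf19 and Cdc5l had the opposite sign, at -0.044, -0.082 and -0.046, and their groups overlapped. With single libraries left out they ranged from -0.073 to -0.029 for Plrg1, -0.12 to -0.047 for Prpf19 and -0.063 to -0.036 for Cdc5l.

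The 9 genes were tested at each day with limma on log2(FPKM + 1), over every gene with a value above 0 in at least 1 of the 6 libraries, with Benjamini-Hochberg adjustment and a threshold of 0.05. At day 0, 0 of the 9 passed, as did 0 of all 15641 genes tested (0%). At day 1, 0 of the 9 passed against 15 of 15104 genes (0.0993%), and at day 2, 0 of the 9 passed against 7 of 15210 genes (0.0460%). With single libraries left out, the calls over all genes were between 5 and 8 at day 1 and between 0 and 6 at day 2. In a single fit of all 18 libraries, 0 of the 9 and 23 of all 15641 genes passed at day 0. At an unadjusted p under 0.05 there were 0 of the 9 at day 0 (2.00% of all genes), 3 at day 1 (Plrg1, Prpf19 and Cdc5l, against 16.3% of all genes) and 0 at day 2 (7.71%). The median log2 fold change of the 9 was -0.017, 0.042 and -0.0068 at the 3 days, beside medians over all genes of -0.0015, -0.0046 and -0.0055. At day 1 the 95% confidence intervals of all 9 lay within -0.12 and 0.21, and at day 2 within -0.26 and 0.18. At day 0 they were wider, from -0.59 to 0.39, and with the replicate block they lay within -0.31 and 0.18. With the block, 0 of the 9 had an unadjusted limma p under 0.05, against 891 of all 15641 genes. Counting libraries that do not overlap between genotypes, there were 0 of the 9 at day 0 (3.87% of all genes), 4 at day 1 (Plrg1, Prpf19, Cdc5l and Crnkl1, against 20.1% of all genes) and 1 at day 2 (Dhx38, against 11.1%).

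**Figure D2:**
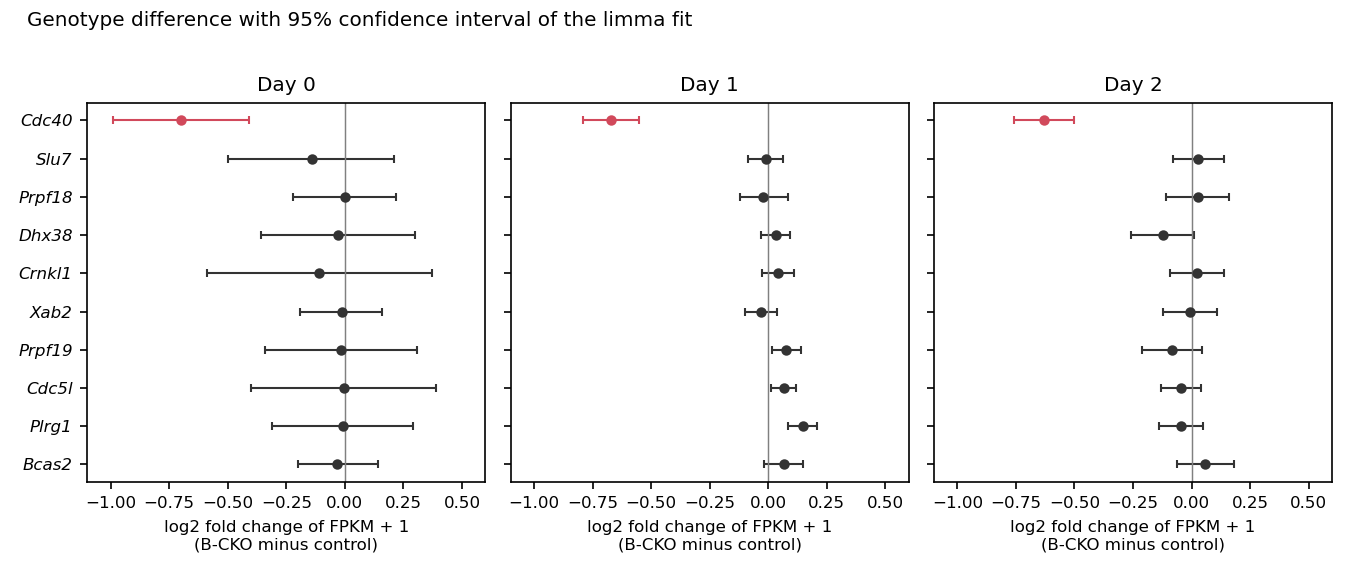
Log2 fold change of FPKM + 1 between B-CKO and control (x axis) for the 10 genes (y axis) at day 0, 1 and 2, with the 95% confidence interval of the limma fit (n = 3 libraries per genotype). Cdc40 (red) lies at -0.70, -0.67 and -0.63, and the other 9 genes lie between -0.14 and 0.15.

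Cdc40 stood lower in the order of the 10 genes in B-CKO. This order and the ratio below use the values on which Cdc40 was chosen, so they add no separate evidence. In control cells its mean ranked the eighth at each day. It overlapped with Prpf19 above it at day 0, overlapped with neither neighbour at day 1, and overlapped with both Crnkl1 and Prpf18 at day 2. In B-CKO cells Cdc40 had the lowest mean of the 10 at each day, overlapping with Crnkl1 at day 0 but below every library of Slu7, the next gene, at day 1 and day 2. At the top of the order, Xab2 and Bcas2 overlapped at day 0 at 55.0 FPKM each in control, and Bcas2 alone led at day 1 and day 2. Relative to the geometric mean of the other 9 genes in the same library, Cdc40 was at 0.785, 0.629 and 0.698 in control and at 0.403, 0.467 and 0.421 in B-CKO at day 0. This ratio does not depend on how the library was scaled. Its mean was 0.610 in control and 0.362 in B-CKO at day 1, and 0.638 and 0.407 at day 2, and at no day did the groups overlap.

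**Figure D3:**
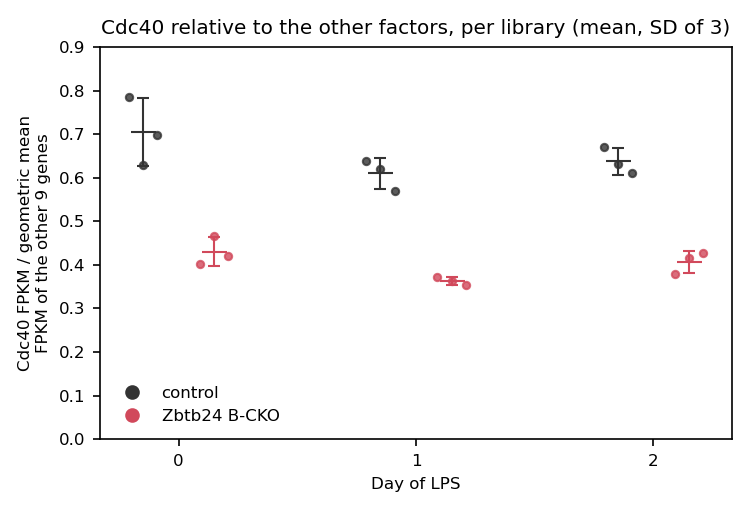
Cdc40 FPKM divided by the geometric mean FPKM of the other 9 genes in the same library (y axis) at day 0, 1 and 2 of LPS (x axis), with 1 point per library and the mean with its SD (n = 3). The 9 control libraries lie between 0.570 and 0.785 and the 9 B-CKO libraries between 0.353 and 0.467. The Cdc40 values are those on which it was chosen.

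The change with LPS was asked of all 10 genes, since it did not enter the choice of Cdc40. The 10 genes and the further lists below were, however, chosen with earlier results of these data known. From day 0 to day 1 in control cells, all 4 core subunits of the Prp19 complex rose. Prpf19 went from 22.26, 19.40 and 16.48 FPKM to 43.47, 45.43 and 43.94 FPKM, and its groups did not overlap (log2 fold change 1.16 with a standard error of 0.11, limma adjusted p = 0.000195). Plrg1 went from 19.97, 20.57 and 25.21 FPKM to 45.91, 46.71 and 46.04 FPKM (log2 fold change 1.05 with a standard error of 0.094, limma adjusted p = 0.000166). Cdc5l rose by 0.67 and Bcas2 by 0.28 on the same scale. Of the associated proteins, Crnkl1 rose from 12.4 ± 2.23 to 23.5 ± 0.306 FPKM (log2 fold change 0.88, limma adjusted p = 0.00104), whereas Xab2 was at 55.0 ± 3.56 and 51.2 ± 0.511 FPKM and did not pass the test (adjusted p = 0.216).

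The second-step factors went in different directions over the same interval. Slu7 fell from 26.18, 28.90 and 37.06 FPKM to 16.06, 15.55 and 15.60 FPKM (log2 fold change -0.91 with a standard error of 0.13, limma adjusted p = 0.00117). Prpf18 rose by 0.26 (adjusted p = 0.0247), a call that was lost without control replicate 2 of day 0 (adjusted p = 0.0592), without control replicate 1 or 3 of day 1 (0.103 and 0.0868), and under both other scalings. Dhx38 had a log2 fold change of -0.16 (adjusted p = 0.274), and with single libraries left out it lay between -0.28, without control replicate 1 of day 0, where it passed (adjusted p = 0.0156), and -0.058, without control replicate 3 of day 0 (adjusted p = 0.595). Xab2 likewise passed without control replicate 1 of day 0, at -0.14 (adjusted p = 0.0470), and was at -0.053 without control replicate 3 of that day. Cdc40 had a log2 fold change of 0.15 (95% confidence interval -0.12 to 0.42, adjusted p = 0.297), with 0.24 without control replicate 1 and 0.051 without control replicate 2 of day 0. In all, 6 of the 10 rose against 26.7% of the 15531 genes tested, and 1 of the 10 fell against 30.7%. The median over the 10 was 0.27, beside -0.022 over all genes.

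The direction of small changes depended on scaling. Rescaling the FPKM of each library to a common sum (TPM) moved the median of genes averaging 1 FPKM or more from 0.017 to -0.14 in control and from 0.0072 to -0.14 in B-CKO for the first day of LPS. Under TPM, Bcas2 and Prpf18 no longer passed in control (0.11 and 0.10, adjusted p = 0.152 and 0.332), Xab2 passed at -0.27 (adjusted p = 0.0168) and Cdc40 was at -0.0098. The calls of Prpf19, Plrg1, Cdc5l, Crnkl1 and Slu7 held under TPM, under median ratio scaling and without any single library.

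B-CKO cells gave the same 7 calls from day 0 to day 1. There, Prpf19 rose by 1.26, Plrg1 by 1.21, Crnkl1 by 1.04, Cdc5l by 0.74, Bcas2 by 0.38 and Prpf18 by 0.24, and Slu7 fell by 0.77 on the log2 scale. The call of Prpf18 was again lost without any 1 of the 3 B-CKO libraries of day 1 (adjusted p = 0.0530 to 0.0818) and under TPM (0.354). Xab2, at -0.12 (adjusted p = 0.0748), passed under TPM (-0.28, adjusted p = 0.00265), under median ratio scaling (-0.16, adjusted p = 0.0470) and in a single fit of all 18 libraries (adjusted p = 0.0479). Cdc40 was at 0.18 (95% confidence interval 0.012 to 0.35, adjusted p = 0.0639), and without B-CKO replicate 2 of day 0 it passed at 0.23 (adjusted p = 0.0262). Dhx38 was at -0.10 (adjusted p = 0.303) and passed without B-CKO replicate 1 of day 0 at -0.18 (adjusted p = 0.0214) and under TPM at -0.27 (adjusted p = 0.0270), but was at -0.043 without B-CKO replicate 3 of day 0. These 6 genes that rose compare with 27.5% and the 1 that fell with 32.3% of the 15551 genes tested.

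From day 1 to day 2 in control cells, 5 of the 10 genes fell, against 24.8% of 15178 genes, and 0 rose, against 20.1%. Prpf19 fell from 44.3 ± 1.02 to 33.3 ± 1.48 FPKM (log2 fold change -0.40 with a standard error of 0.040, limma adjusted p = 0.000354), which left it above its day 0 level. Xab2 fell from 50.89, 51.82 and 50.99 FPKM to 37.27, 41.45 and 39.97 FPKM (log2 fold change -0.37 with a standard error of 0.042, limma adjusted p = 0.000607). Crnkl1, Dhx38 and Cdc5l fell by 0.20, 0.19 and 0.15. Plrg1, at 46.2 ± 0.429 and 46.0 ± 1.62 FPKM, had a log2 fold change of -0.0087 (95% confidence interval -0.089 to 0.072, adjusted p = 0.860). Cdc40 was at -0.089 (95% confidence interval -0.22 to 0.041, adjusted p = 0.241), and between -0.14 (without control replicate 3 of day 1) and -0.053 (without control replicate 1 of day 1) with single libraries left out.

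In B-CKO cells 6 of the 10 fell from day 1 to day 2, against 24.0% of 15253 genes, and 0 rose, against 21.7%. They were the same 5 genes and Plrg1. Prpf19 fell by 0.56, Dhx38 by 0.35, Xab2 by 0.34, Cdc5l by 0.26, Crnkl1 by 0.22 and Plrg1 by 0.20 on the log2 scale. Prpf18 was at 0.081 (adjusted p = 0.240) and passed under median ratio scaling at 0.13 (adjusted p = 0.0495). With single libraries left out, Prpf18 lay between 0.039 and 0.11 and did not pass (limma adjusted p = 0.156 to 0.488). Cdc40 was at -0.049 (95% confidence interval -0.17 to 0.070, adjusted p = 0.486), and between -0.069 (without B-CKO replicate 2 of day 2) and -0.014 (without B-CKO replicate 1 of day 2) with single libraries left out. In a single fit of all 18 libraries, whose spread is then shared with day 0, 2 of the 10 fell in control (Prpf19 and Xab2, against 16.4% of all genes) and 3 in B-CKO (Prpf19, Xab2 and Dhx38, against 18.4%).

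**Figure D4:**
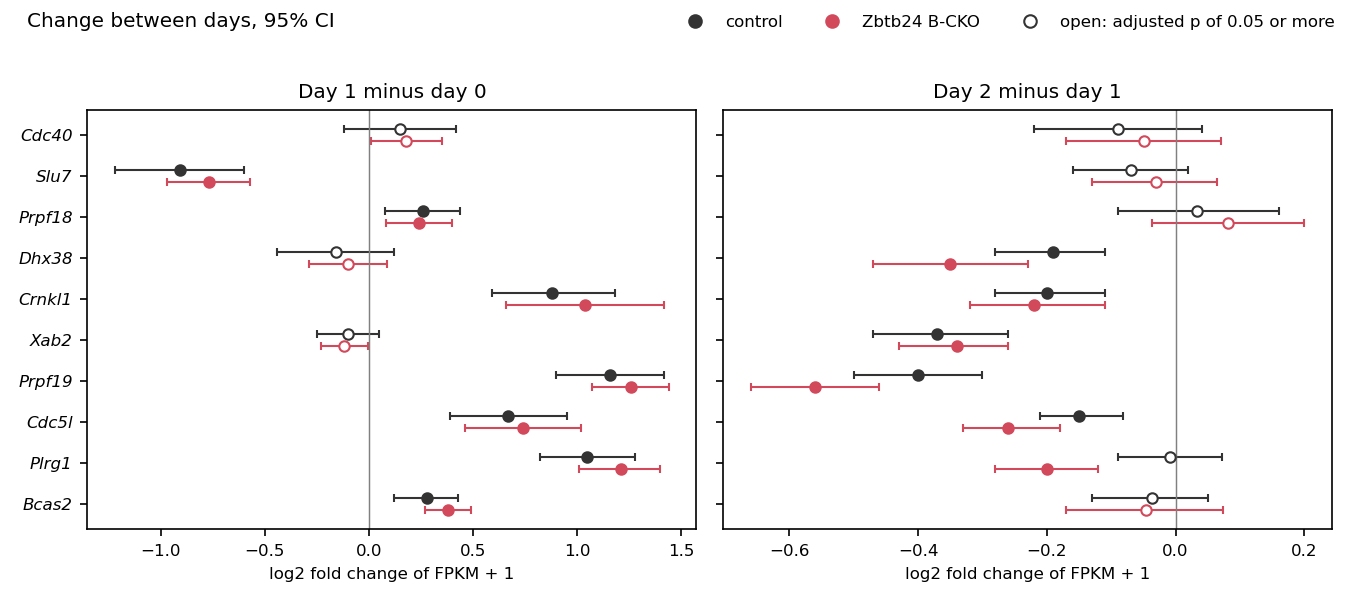
Log2 fold change of FPKM + 1 (x axis) of the 10 genes from day 0 to day 1 (left) and from day 1 to day 2 (right) in control (black) and B-CKO (red) cells, with 95% confidence intervals (n = 3 libraries per group and day). Filled points passed the limma test, which Prpf19 and Plrg1 did with rises of over 1 in both genotypes on the left, and Cdc40 is open in all 4 comparisons.

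Whether the change with LPS differed between genotypes was tested as an interaction over the 12 libraries of consecutive days. For day 0 to day 1, 0 of the 9 tested genes passed (limma, 0 at an unadjusted p under 0.05, against 2.89% of all genes), as did 0 of all 16182 genes (0%). For day 1 to day 2, 0 of the 9 passed, as did 0 of all 15844 genes (0%), and 4 of the 9 had an unadjusted p under 0.05, against 7.31% of all genes. These were Plrg1 (-0.19, standard error 0.044, adjusted p = 0.451), Prpf19 (-0.16, standard error 0.059, adjusted p = 0.619), Dhx38 (-0.16, standard error 0.062, adjusted p = 0.646) and Cdc5l (-0.11, standard error 0.036, adjusted p = 0.598). That Plrg1 passed the test in B-CKO and not in control is therefore not shown to be a difference between them. For Cdc40, which was not tested, the genotype difference in the change was 0.034 (95% confidence interval -0.25 to 0.32) for the first interval and 0.039 (-0.12 to 0.20) for the second.

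Other spliceosome genes were counted in 5 lists, 47 genes in all. They are 10 further Prp19-related proteins, 8 first-step factors, 8 factors of exon ligation and spliceosome release, 8 core proteins of the U5 particle and 13 proteins that recognise the branch site. Between genotypes, 0 of the 47 passed the limma test at any of the 3 days, with 0, 8 and 3 at an unadjusted p under 0.05 (against 2.00%, 16.3% and 7.71% of all genes), and in a fit limited to genes averaging 1 FPKM or more, 1 of the 47 passed at day 1, against 388 of all 9711 genes in that fit. Their median log2 fold changes between B-CKO and control were -0.014, 0.032 and -0.034, and the lowest single value was -0.18. In control cells from day 0 to day 1, 33 of the 47 rose (26.7% of all genes) and 3 fell (30.7% of all genes), with a median of 0.57 beside -0.022 over all genes. All 8 U5 genes rose, among them Snrnp40 (1.56) and Eftud2 (1.45), and 11 of 13 branch site genes rose, among them Sf3a3 (1.56) and Sf3b5 (1.34), both parts of the SF3 complexes of the U2 particle. Of the further Prp19-related genes 7 rose and 1 fell. Ppil1, a peptidyl-prolyl isomerase of the spliceosome, rose from 24.3 ± 8.61 to 102 ± 2.46 FPKM (log2 fold change 2.09, limma adjusted p = 0.000541), and Syf2 fell from 117 ± 11.9 to 57.8 ± 5.21 FPKM (-1.01, adjusted p = 0.000239). Of the first-step genes 3 rose and 1 fell, with Rnf113a1 at 1.37 and Rnf113a2 at -0.88, a pair of near-identical paralogs whose fragments the counting may have divided between them. Of the exon ligation and release genes 4 rose and 0 fell, Dhx15 by 0.81 and Prkrip1 by 0.66.

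From day 1 to day 2 in control cells, 28 of the 47 fell (24.8% of all genes) and 4 rose (20.1% of all genes), with a median of -0.18. The U5 list had 7 of 8 lower, with Snrnp200 at -0.56 and Prpf8, the protein at the centre of the catalytic core, at -0.43. The branch site list had 9 of 13 lower, with Sf3b3 at -0.52 and Sf3a2 at -0.48. Of the further Prp19-related genes 6 fell and 1 rose, with the helicase Aqr at -0.46 and Ppie at -0.41. Of the first-step genes 3 fell and 2 rose, with Cwc22 and Cwc27 at -0.47 each, and of the exon ligation and release genes 3 fell and 1 rose, with Dhx15 at -0.44 and Dhx8 at -0.35. Under TPM, 29 of the 47 rose and 7 fell in the first interval, against 22.9% and 35.7% of all genes. In the second, 3 rose and 31 fell, against 18.1% and 27.3% of all genes. Summed T cell, erythroid and B cell markers were lower after day 0 as well, as given above, and their part in these changes was not tested.

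Over the 18 libraries, the 9 other genes had Pearson correlations with Cdc40 of log2(FPKM + 1) between -0.124 (Slu7) and 0.214 (Crnkl1). None of them ranked above place 973 of the 9986 genes averaging 1 FPKM or more by this measure. The 5 genes most like Cdc40 were Taf6 (r = 0.906), Rnf187 (0.898), Car2 (0.834), Adora2a (0.810) and Ostc (0.797). These correlations are a description over libraries that share groups and days, and the likeness rests on the genotype values for which Cdc40 was chosen. Taf6, which encodes a subunit of the general transcription factor TFIID, averaged 21.5, 33.3 and 31.2 FPKM in control and 12.8, 14.8 and 14.5 FPKM in B-CKO at day 0, 1 and 2. Rnf187, an E3 ubiquitin ligase gene, averaged 94.6, 115 and 113 FPKM in control and 63.5, 83.1 and 75.1 FPKM in B-CKO. Ostc, which encodes a subunit of the oligosaccharyltransferase, averaged 42.4, 83.8 and 111 FPKM in control and 23.4, 33.1 and 45.5 FPKM in B-CKO. Car2, the gene of a carbonic anhydrase, and Adora2a, that of an adenosine receptor, were low, with group means of 3.44 to 6.94 FPKM. Like Cdc40, all 5 had negative genotype differences at the 3 days, from -0.26 to -1.31.

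Of these 5 genes, Taf6 and Rnf187 had RefSeq windows with matches to the sequence searched in Cdc40, a look taken after their values were seen. Car2, Adora2a and Ostc had no entry and were not searched. Taf6 had 2 windows. The one at the start of the gene held 0 matches, and the one at an alternative start inside the gene held 2, which lie after the gene start. The first of these crosses the edge of the window at the gene start. The single window of Rnf187 held 1 match. Of all windows, 1.99% held at least 1 match. The matches are shown in the same way as the pair in Cdc40, and their part in the genotype values was not tested. Both genes are on the minus strand.
Taf6, from base 46 after the gene start, chr5:138187388-138187417: gcgccttctgaAGGTCCTGacagctgggta
Taf6, from base 212 after the gene start, chr5:138187222-138187251: ttggcttctgcCAGGACCTactcctgtcag
Rnf187, 60 bases before the gene start, chr11:58938948-58938977: tgcgcagctgcCAGGACCTggacgtcagag

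Cdc40 and Zbtb24 lie on the same chromosome, with their starts 567 kb apart. Wasf1, which encodes a regulator of actin assembly, starts 336 bases away from Cdc40 and runs in the opposite direction, so the upstream match of Cdc40 also falls in a Wasf1 window. Wasf1 was at most at 0.09 FPKM in any of the 18 libraries, and Mettl24, the closest gene on the other side, averaged 0.00611 FPKM. Between 1 Mb before Cdc40 and 1 Mb after Zbtb24 the table has 26 other genes, of which 14 averaged at least 1 FPKM. Of these 14, 0 passed the limma test at any day, with a smallest adjusted p of 1.00, 0.182 and 0.290. Of all genes, 0%, 0.0993% and 0.0460% passed at day 0, 1 and 2. Zbtb24 itself did not pass, so this count cannot show that the neighbours are unchanged. The log2 fold changes of the 14 lay between -0.21 and 0.13 at day 0, between -0.15 and 0.14 at day 1 and between -0.20 and 0.29 at day 2. Fig4, a lipid phosphatase gene and the nearest of the 14 to Cdc40 by midpoint, was at -0.0021, 0.041 and 0.098.

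**Figure D5:**
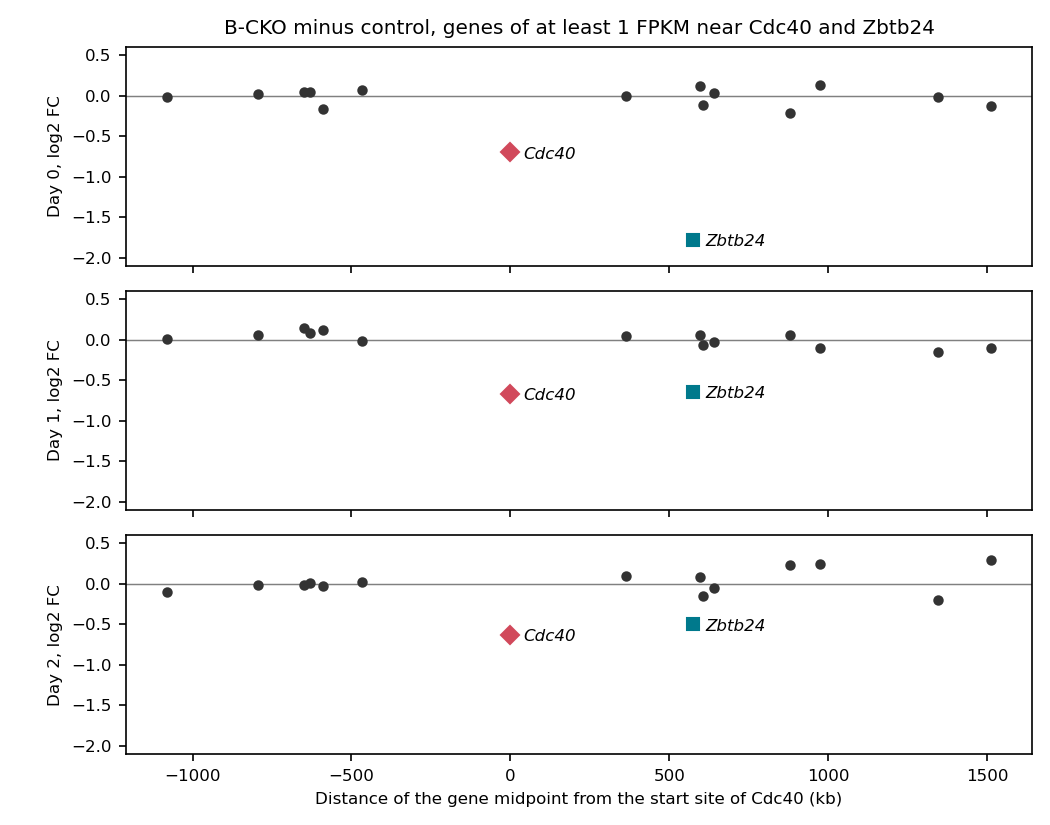
Log2 fold change of FPKM + 1 between B-CKO and control (y axis) at day 0, 1 and 2 for genes averaging 1 FPKM or more, by the distance of their midpoint from the start of Cdc40 in kb (x axis, Cdc40 itself drawn at its start). Cdc40 (red diamond) and Zbtb24 (blue square) lie between -0.50 and -1.78, and the 14 other genes (black) between -0.21 and 0.29.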

How the data were processed

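The authors mapped paired-end reads to mm10 with bowtie2, used Cufflinks and RSEM, and deposited FPKM for 16545 genes. The authors' processing notes also list BWA and DESeq2, with no versions. The labels name an MGI2000 instrument and the methods HiSeq or Novaseq. The deposited FPKM are not counts, so the authors' DESeq2 test was not used here. The test was limma 3.58.1 (lmFit, eBayes with trend, R 4.3.3) on log2(FPKM + 1), a scale that understates changes of low genes. Genes above 0 in any compared library were tested, and p-values were adjusted over all of them. Gene IDs were matched to RefSeq on GRCm38.p6 (16512 of 16545). Fits used the 6 libraries of a comparison or 12 for interactions, and were tested on simulated data first. The members and lists were chosen with earlier results of these data known.

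Named are the 10 genes, Zbtb24, the 5 genes that correlate best with Cdc40, the closest neighbours, and per list and day comparison in control the 2 largest called changes. Alternatives were a pseudocount of 0.1, genes of at least 1 FPKM on average, TPM, median ratio scaling, a replicate block, 1 fit of all 18 libraries, and each library left out. A replicate block with the 1 FPKM filter was added after seeing the data.

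Libraries of both genotypes and of all 3 days share replicate numbers, so the day comparisons and interactions also hold same-numbered libraries. Deviations from group means of same-numbered control and B-CKO libraries correlated at 0.854, 0.468 and 0.789 at day 0, so the numbers pair those samples, although no source says what a number marks. At day 1 these correlations were 0.103, 0.200 and 0.0907, with differently numbered libraries at most at 0.00919. At day 2 they were -0.0376, 0.215 and 0.230. Between day 1 and day 2, same-numbered B-CKO libraries correlated at 0.126, 0.183 and 0.117, with differently numbered ones at most at 0.0227. Same-numbered control libraries of these days correlated at -0.0664, 0.148 and 0.0777. Between day 0 and day 1 the same-numbered B-CKO libraries were at 0.0510, 0.0554 and 0.0442. These values are lower than at day 0, and whether the numbers pair these samples too is not settled. Figures were made with Python 3.11.15 and matplotlib 3.10.9. Results for some marker genes are not reported here.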

Additional observations from a re-analysis of the deposited data

How the results depend on the processing

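The genotype differences of Cdc40 kept their direction under all alternatives, from -0.80 to -0.61 at day 0, -0.72 to -0.63 at day 1 and -0.67 to -0.59 at day 2. With the replicate block they were -0.70, -0.67 and -0.63, and the replicate block alone changed no call of the 10 genes in any comparison. The count of called genes at day 1 between genotypes became 1 (Plrg1) in a fit limited to genes averaging 1 FPKM or more, and 1 with that filter and the replicate block together. In this comparison the filter raised the calls over all genes from 15 to 388 of 9711 tested, and the filter and the block together to 704. In a single fit of all 18 libraries the counts from day 1 to day 2 became 2 in control and 3 in B-CKO. The cause of these shifts was not tested. Over all alternatives, 6 to 9 of the 10 were called from day 0 to day 1 in control and 6 to 8 in B-CKO. Each had 7 as reported, where the calls over all genes were 8915 of 15531 in control and 9306 of 15551 in B-CKO. Without control replicate 1 of day 0, which gave the 9, they were 9417 of 15350. Without replicate 1 of day 1, which gave 6 in each genotype, they were 7671 of 15416 in control and 8162 of 15430 in B-CKO. Under TPM, which gave 8 in B-CKO, they were 9530 of 15551. From day 1 to day 2 in B-CKO the count reached 7 under median ratio scaling, against 6906 of all 15253 genes.

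Values of single genes near 0 changed sign 35 times. Under median ratio scaling these were Cdc5l and Prpf18 at day 0 between genotypes (0.0014 and 0.0048), Slu7 at day 1 (0.0036), and from day 1 to day 2 Plrg1 and Bcas2 in control (0.049 and 0.021) and Bcas2 and Slu7 in B-CKO (0.0043 and 0.017). Under TPM they were Cdc40 from day 0 to day 1 (-0.0098) and Prpf18 from day 1 to day 2 (-0.0068), both in control. With single libraries left out, the genotype differences at day 0 ranged from -0.12 to 0.083 for Prpf19, -0.12 to 0.13 for Cdc5l, -0.089 to 0.091 for Plrg1, -0.063 to 0.016 for Bcas2, -0.29 to 0.024 for Crnkl1, -0.059 to 0.033 for Xab2, -0.047 to 0.038 for Prpf18 and -0.15 to 0.078 for Dhx38. Slu7 ranged from -0.25 to -0.0059 there, with no change of sign. At day 1 they ranged from -0.021 to 0.0035 for Slu7 and -0.057 to 0.012 for Prpf18, and at day 2 from -0.048 to 0.027 for Xab2 and -0.016 to 0.051 for Prpf18. From day 1 to day 2 the ranges were -0.024 to 0.020 for Plrg1 and -0.0017 to 0.070 for Prpf18 in control, and -0.081 to 0.0034 for Bcas2 in B-CKO. None of these values passed the limma test in any of these settings.

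With 3 mice per group, values measure the spread between these mice, and the fragments behind each FPKM are unknown. Day 0 libraries limit what can be seen before stimulation.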
